A study of Arabidopsis thaliana with 16 samples.

Results

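The peaks described here are sites of N6-methyladenosine (m6A) immunoprecipitation whose summit lay inside the protein-coding sequence (CDS) of an Arabidopsis thaliana mRNA. A peak was taken when its summit fell in the CDS of the first isoform of a nuclear protein-coding gene on chromosomes 1 to 5, more than 100 nt of spliced sequence from both the start and the stop codon. The rule found 67000 such peaks among the 143128 peaks of 6 deposited lists, in 11683 of 27407 genes with a usable first isoform. Of these peaks, 18 lay in more than 1 gene. The strand of the gene was the opposite of the strand in the peak's name. With the strand taken as named, 1433 peaks would have met the rule.

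The plants were whole Col-0 seedlings, 20 days old and grown on agar plates at 22 °C with 12 h of light per day, and none carried a mutation or a transgene according to the labels. The cold group was kept at 4 °C for 24 h, and the control group received no treatment. Each group had 3 immunoprecipitated libraries with a peak list each, 3 mRNA libraries and 2 libraries of polysomal RNA, which is mRNA bound to ribosomes. The labels do not say whether replicates were grown apart, so the p-values speak of the variation among these samples, which may be technical.

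m6A is added to adenosines of nascent mRNA by a complex built around the methyltransferases MTA and MTB, removed by ALKBH demethylases, and bound by YTH-domain proteins called ECT in plants. In Arabidopsis, m6A is best known from the last part of the transcript, around the stop codon and in the 3' untranslated region (3' UTR). The usual methylated sequence is called RRACH, which stands for 12 words of 5 bases: the first base is A or G, the second is again A or G, then come A and C, and the last base is A, C or T. The methyl group sits on the A before the C. Plant 3' UTR sites are also known for TGTA words (UGUA in RNA), searched here as TGTA followed by any base but G.

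Peaks of neighbouring summits were joined into regions, with summits of 1 gene within 100 nt of each other in 1 region. Below are the 12 CDS regions that ranked highest by fold enrichment among those called in all 6 lists at a q of at most 0.05, in genes whose mean mRNA level reached 20 CPM (read counts scaled to library size) in cold and in control, with 1 region shown per gene. The stretch runs 50 nt to either side of the middle summit and stops at the exon's end. Coordinates and letters are those of the TAIR10.1 RefSeq genome, read 5' to 3' on the gene's strand, and capitals mark RRACH words.
AT1G63810 (chr1:23669753-23669821, minus strand): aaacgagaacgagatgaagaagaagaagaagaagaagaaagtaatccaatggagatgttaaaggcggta
TDX (chr3:6125779-6125843, plus strand): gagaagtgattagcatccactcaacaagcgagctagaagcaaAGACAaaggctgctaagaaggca
AT3G33530 (chr3:14085612-14085712, plus strand): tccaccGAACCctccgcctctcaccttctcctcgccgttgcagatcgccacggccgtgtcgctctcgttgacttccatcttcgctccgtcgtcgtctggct
AT5G07740 (chr5:2462774-2462874, minus strand): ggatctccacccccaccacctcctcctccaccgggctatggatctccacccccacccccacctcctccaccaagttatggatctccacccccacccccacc
AFH14 (chr1:11403125-11403225, minus strand): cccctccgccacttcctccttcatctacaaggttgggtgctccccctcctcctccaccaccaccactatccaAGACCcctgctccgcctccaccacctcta
GC6 (chr3:10193847-10193947, minus strand): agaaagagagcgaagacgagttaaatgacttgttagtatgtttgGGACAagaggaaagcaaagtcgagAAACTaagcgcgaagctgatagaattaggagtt
3xHMG-box2 (chr4:12392067-12392125, plus strand): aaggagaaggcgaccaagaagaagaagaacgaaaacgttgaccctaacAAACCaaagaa
AT5G47690 (chr5:19326316-19326380, plus strand): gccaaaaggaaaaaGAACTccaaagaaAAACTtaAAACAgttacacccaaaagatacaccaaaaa
AT4G38550 (chr4:18026185-18026285, plus strand): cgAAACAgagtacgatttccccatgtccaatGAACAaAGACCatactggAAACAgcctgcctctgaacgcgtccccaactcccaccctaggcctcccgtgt
AT1G60640 (chr1:22337702-22337766, minus strand): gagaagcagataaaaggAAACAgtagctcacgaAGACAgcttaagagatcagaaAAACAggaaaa
AT4G36520 (chr4:17232440-17232540, minus strand): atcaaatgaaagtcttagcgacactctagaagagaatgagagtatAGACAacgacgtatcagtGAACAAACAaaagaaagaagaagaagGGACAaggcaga
AT1G70620 (chr1:26626815-26626915, plus strand): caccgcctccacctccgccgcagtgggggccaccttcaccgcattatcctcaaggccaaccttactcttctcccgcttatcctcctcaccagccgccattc
RRACH words occurred in 9 of these 12 stretches, with at most 4 in a stretch. The stretches without one were those of AT1G63810, AT5G07740 and AT1G70620. Over all CDS windows of 101 nt in genes with a CDS peak, 74.5% held an RRACH word. The stretches of AT5G07740 and AFH14 were rich in CCACC and CTCC repeats. That of AT1G63810 held a run of GAAGAA repeats.

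These 12 regions lay in genes of different roles. AT1G63810 is annotated as a nucleolar protein, and its peak had a fold enrichment of 6.06, 4.72 and 4.95 in cold lists 1 to 3 and of 3.53, 5.78 and 7.47 in control lists 1 to 3. TDX, a thioredoxin with tetratricopeptide repeats, had 4.18, 3.01 and 7.79 in the cold lists and 5.59, 5.43 and 5.08 in the control lists. For both genes the cold and control values overlapped. AT5G07740, annotated as an actin-binding protein, had 3.70, 4.19 and 5.65 against 4.87, 3.43 and 3.50. AFH14, a formin that binds actin filaments and microtubules, had 3.03, 4.18 and 5.42 against 4.53, 5.002 and 3.78. The summits of both genes lay in long exons, of 2825 and 1541 nt.

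GC6, a golgin of the Golgi apparatus, had folds of 5.22, 5.38 and 6.25 in the cold lists and 3.56, 3.02 and 3.93 in the control lists. The cold values of GC6 were the higher ones, but the folds are the authors' values per list and were not tested between lists. 3xHMG-box2, a chromatin protein with HMG boxes, had 3.38, 3.56 and 4.72 against 6.05, 5.85 and 3.32. AT5G47690, annotated as a binding protein, varied least, with 4.12, 3.74 and 3.87 against 3.86, 4.22 and 3.39. The remaining 5 genes encode a WD-40 repeat protein (AT3G33530), a PEARLI 4 family protein (AT4G38550), a stress response protein (AT1G60640), a DnaJ-domain chaperone (AT4G36520) and a cyclin-like protein (AT1G70620), by their annotation. Over all 12 regions and 6 lists the fold ran from 2.96 to 7.79.

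**Figure D1:**
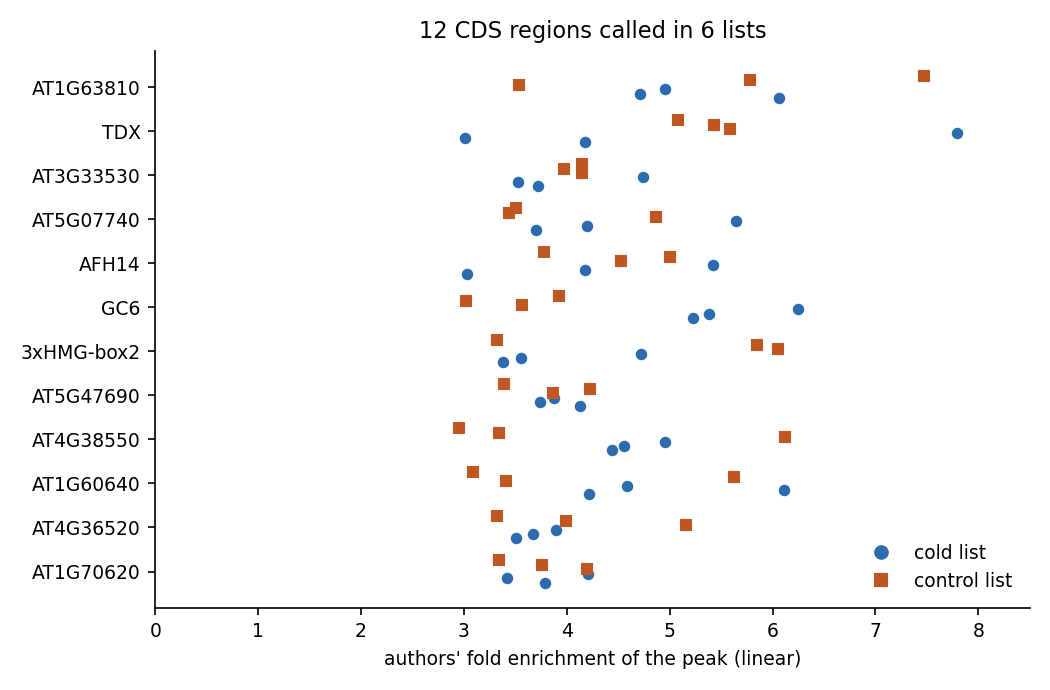
Fold enrichment as deposited by the authors (linear axis) for the 12 CDS regions named in the text, with a circle for each cold list and a square for each control list. Values lie between 2.96 and 7.79, and cold and control symbols overlap for all genes but GC6.

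The mRNA of most of these genes did not pass the test between cold and control. AT1G63810 mRNA was at 88.3, 72.6 and 71.0 CPM in cold libraries 1 to 3 and at 35.3, 35.2 and 36.0 CPM in control libraries 1 to 3. It rose by 1.04 ± 0.14 on the log2 scale (SE, adjusted p = 0.00195 by edgeR's quasi-likelihood test with Benjamini-Hochberg adjustment). AT1G60640 mRNA was at 58.3, 55.0 and 42.3 CPM against 29.1, 26.1 and 34.3 CPM, a rise of 0.72 ± 0.18 (SE, adjusted p = 0.0208 by edgeR). In both genes every cold library was above every control library. AT3G33530 was at 144, 114 and 1105 CPM in the cold libraries and at 117, 145 and 125 CPM in the control libraries, so that cold library 3 alone held its high value (adjusted p = 0.24 by edgeR).

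CDS peaks made up 45.6%, 48.9% and 35.5% of the chromosome 1 to 5 peaks in cold lists 1 to 3 and 50.3%, 49.6% and 47.8% in control lists 1 to 3. Cold list 3 was the low one, and the highest cold value overlapped the control range. The means were 43.3% ± 6.99 (SD, n = 3) in cold and 49.2% ± 1.28 (SD, n = 3) in control, a difference of -5.91 percentage points (two-sided exact permutation test, p = 0.2, where 3 against 3 lists cannot go below 0.1). Without cold list 3 the difference was -1.99 points. That list was the shortest, with 15383 peaks against 23174 to 27310 in the others. The cold mRNA library of the same number also stood apart, with 3282574 gene counts (8428636 to 10965304 for the rest) and with 82.2% of reads not aligned to a unique place.

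The authors' lists reach to an unadjusted p near 0.05, and most CDS peaks did not pass the q of 0.05. The share of CDS peaks with a q of at most 0.05 was 25.7%, 24.96% and 12.5% in the cold lists and 21.9%, 23.1% and 22.8% in the control lists. Within 100 nt of the stop codon it was 45.1%, 41.4% and 26.1% in cold and 38.4%, 43.4% and 44.6% in control. In the 3' UTR beyond that it ran from 36.6% to 59.1%. The CDS share was the lower one in each of the 6 lists, by 18.0 percentage points on average (SD 3.00, two-sided exact sign-flip permutation test over 6 lists, p = 0.03125, the smallest it can give).

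**Figure D2:**
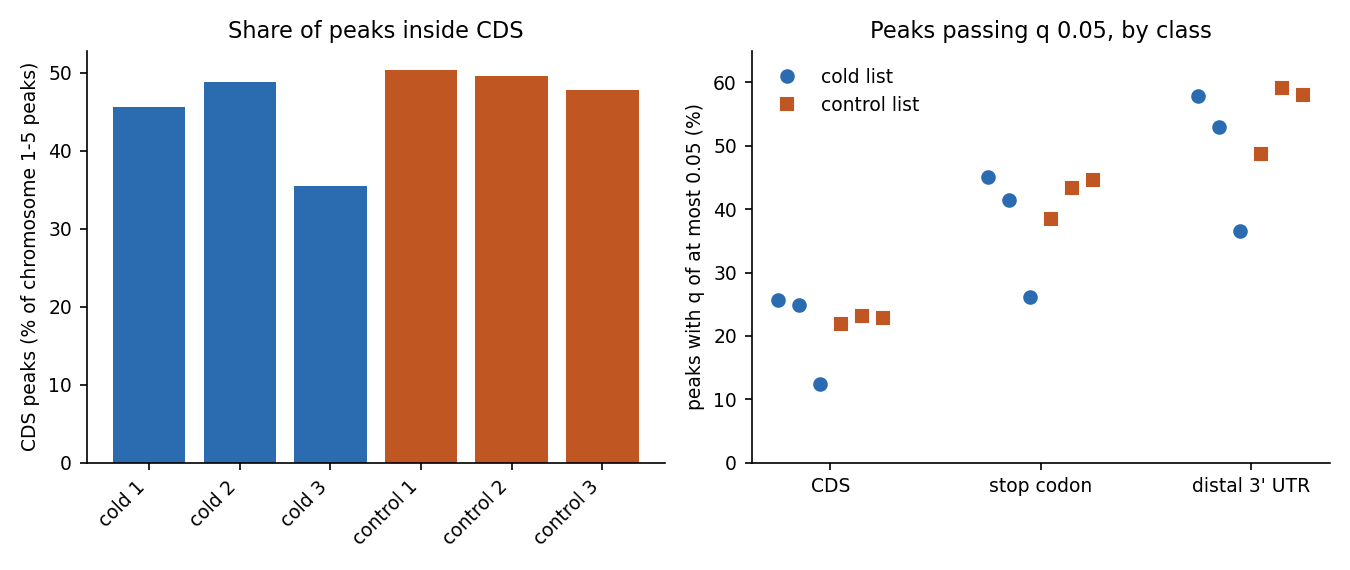
Left, CDS peaks as a percent of the chromosome 1 to 5 peaks of each list (bars, 1 list each). Right, the percent of peaks with a q of at most 0.05 in each list for CDS, stop codon and distal 3' UTR peaks (circles cold, squares control). Cold list 3 is lowest in both panels (35.5% and, for CDS, 12.5%), and CDS points lie below stop codon points of the same list.

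CDS peaks were also lower and narrower than stop codon peaks of the same list. The median fold of CDS peaks was 2.13, 2.09 and 2.501 in cold and 2.13, 2.06 and 2.02 in control, against 2.36, 2.30 and 2.64 in cold and 2.34, 2.31 and 2.30 in control at the stop codon. On the log2 scale the within-list difference in median fold, CDS minus stop codon, was -0.14 (SD 0.04, below 0 in 6 of 6 lists, two-sided exact sign-flip permutation test, p = 0.03125). It was -0.12 when only genes with peaks of both kinds in a list were used, and shrank to -0.05 among peaks with a q of at most 0.05, still below 0 in 6 of 6 lists. The median width of a CDS peak ran from 174 to 185 nt over the lists and that of a stop codon peak from 206 to 271 nt. CDS peaks numbered 0.356 to 0.883 per kb of eligible sequence in a list, and stop codon peaks of the same genes 1.397 to 1.94 per kb.

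Within the CDS the peaks were densest at the ends and sparse in the middle. When the eligible CDS of each gene was cut into 10 equal stretches, the first held 12.8% of CDS peaks, the fourth 8.01% and the last 13.8%. Among peaks with a q of at most 0.05, the last stretch held 16.3%. At the limits of the rule there was no step. At the stop codon side, the 1901 peaks within 20 nt inside the limit had a median fold of 2.098, and the 2050 peaks within 20 nt outside it had 2.097. At the start codon the 1600 peaks just inside had 1.98, and the 1489 just outside had 1.96.

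Positions relative to splice junctions were far from even. Only 89 of the 67000 CDS summits (0.133%) lay in the last 30 nt of an exon upstream of a splice junction, where 11.5% of all coding bases of the same genes lie. Over the 6 lists this share ran from 0.1004% to 0.203%, and 1 of the 15237 CDS peaks with a q of at most 0.05 lay there. From 40 to 49 nt before the exon's end the share was 7.35% of summits against 3.73% of coding bases. On the other side of the junction the first 30 nt of an exon held 16.8% of summits against 11.5% of coding bases, and from 5 to 14 nt after the exon's start the share was 7.90% against 3.83%. Both departures were seen in every list, cold list 3 included, where the first 30 nt held 12.7% and the last 30 nt held 0.203%. Among the middle summits of the 4997 CDS regions called in all 6 lists, 1 lay in the last 30 nt of an exon. Their share in the first 30 nt was 11.51%, beside 11.47% of the coding bases of all genes with a CDS peak. From 5 to 14 nt after the exon's start it was 5.48%, against 3.83% of those bases. The genes with such regions have longer exons (median over coding bases 635 nt against 513 nt). Their own coding bases were not counted by side of the junction. The cause of this asymmetry was not tested.

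**Figure D3:**
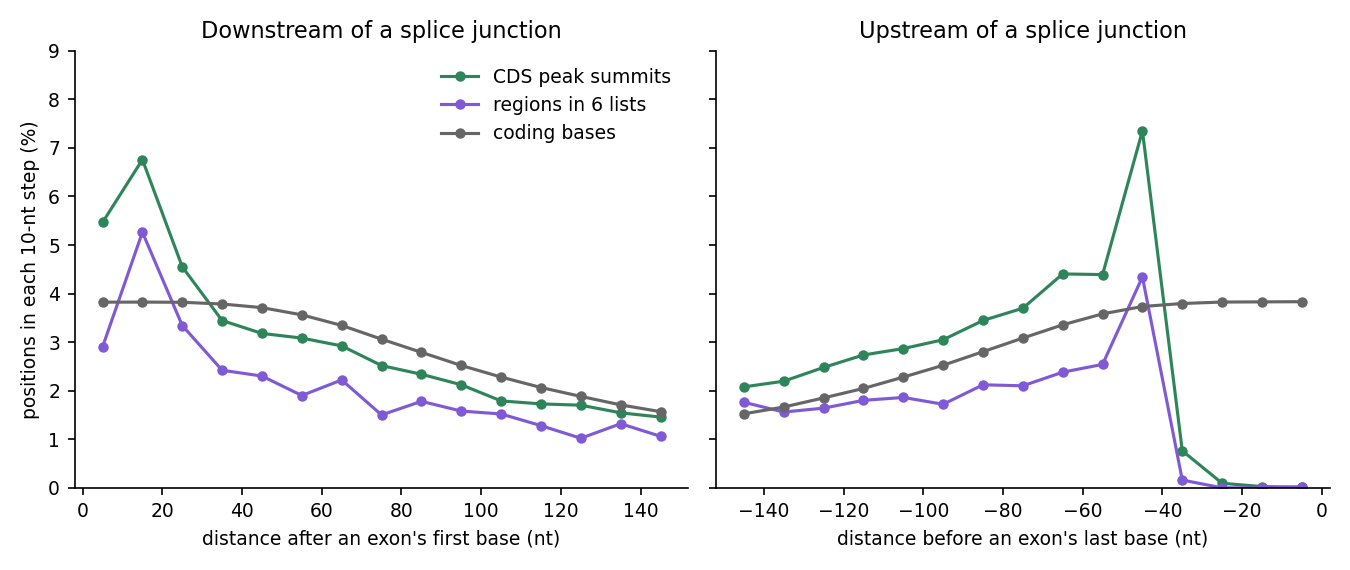
Percent of positions in each 10-nt step after the first base (left) or before the last base (right) of an exon that borders an intron, for all CDS summits, the middle summits of CDS regions called in 6 lists, and every 7th coding base of genes with a CDS peak. Summits fall to near 0 within 30 nt of the exon's end and peak 40 to 49 nt before it, at 7.35%.

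The RRACH words were also unevenly placed around the summit, and a link to the junction pattern was not tested. For CDS summits their density, placed by the A before the C, was 15.05 per kb in the 50 nt before the summit, 17.3 per kb from the summit to 49 nt after it, and 13.8 per kb from 50 to 99 nt after it. For CDS peaks with a q of at most 0.05 the 3 values were 15.3, 17.9 and 14.0 per kb. Stop codon summits had the same order, with 14.4, 17.0 and 11.5 per kb. The excess therefore lay on the downstream side of the deposited summit in both classes.

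In a window of 50 nt to either side of the summit, 78.6% of CDS summits had an RRACH word on the transcript strand, against 74.5% of all CDS windows of that length in the same genes and 77.7% of stop codon summits. By list the CDS value was 78.8%, 78.3% and 77.6% in cold and 79.1%, 78.9% and 78.3% in control, and the groups overlapped. The CDS minus stop codon difference averaged 0.754 percentage points (SD 0.794, above 0 in 5 of 6 lists, two-sided exact sign-flip permutation test, p = 0.09375), and its sign changed with the peak threshold, the window and the motif. Among the 12 words, AAACC occurred in 18.1% of windows of CDS peaks with a q of at most 0.05 against 12.3% of all CDS windows, and AAACA in 21.2% against 15.7%. GGACT went the other way, at 5.11% against 7.13%.

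The TGTA words separated the CDS from the end of the transcript. At least 1 of them was present in 14.0% of CDS windows, 39.95% of stop codon windows and 61.2% of distal 3' UTR windows. Over all CDS windows of the same genes the share was 18.0%. The CDS value was below the stop codon value in each of the 6 lists, by 26.4 percentage points on average (SD 2.86, two-sided exact sign-flip permutation test, p = 0.03125). Base composition differed in the same direction: T made up 22.6% of bases around CDS summits, 26.7% of all CDS windows, 30.3% around stop codon summits and 36.0% around distal 3' UTR summits. Windows away from summits were counted for the CDS alone. The test between classes therefore cannot separate the peaks from the sequence of the parts of the transcript they lie in.

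Among 1517 six-base words present within 25 nt of at least 1% of the stronger CDS summits (q of at most 0.05), the highest ratio to all CDS windows was that of ACCACC, at 4.76% against 1.29%. CACCAC followed, at 4.40% against 1.24%. In single lists ACCACC occurred in 5.29%, 3.90% and 8.43% of stronger CDS windows in cold and in 5.21%, 4.38% and 4.38% in control, always above the 1.29%. Both words occur in the stretches of AT5G07740 and AFH14 printed above. The lowest ratio was that of TTCTTG, at 1.34% against 3.39%.

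CDS regions recurred over lists less than regions of the end of the transcript. The 67000 peaks formed 29935 regions, with a median span of summits of 2 nt, and a list counted as having a region where any of its peaks on that strand covered a summit of it. Of the CDS regions, 4997 (16.7%) were called in all 6 lists and 8300 (27.7%) in 1 list. Regions called in all 6 lists made up 48.0% at the stop codon, 55.9% in the distal 3' UTR, 17.8% at the start codon and 29.9% over these 4 classes together. The CDS regions in all 6 lists lay in 3374 genes. Requiring a q of at most 0.05 in each list left 199 regions in 144 genes. Where all 6 lists had a CDS summit of their own in a region (1644 regions), the summits were spread over a median of 58 nt.

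**Figure D4:**
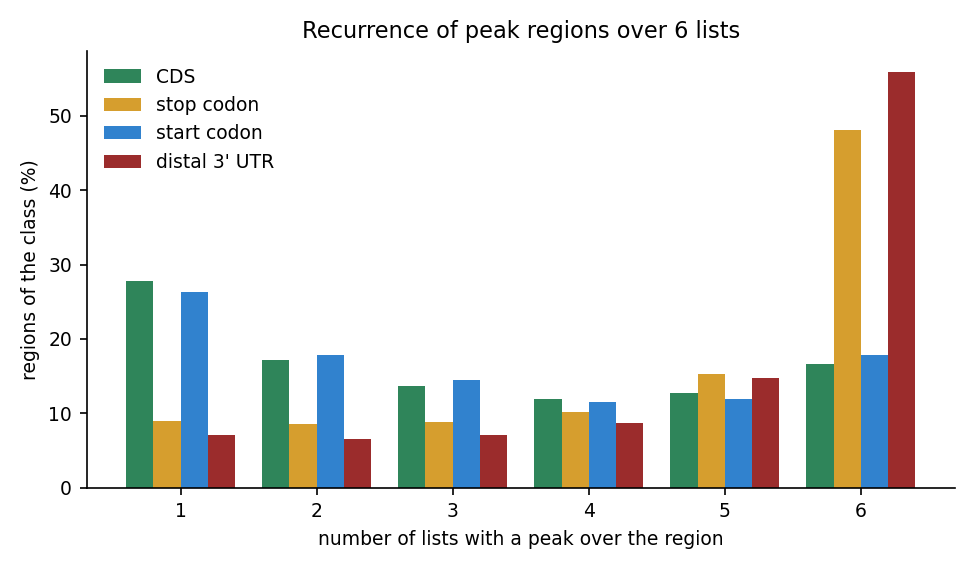
Percent of regions of each class (bars) by the number of lists with a peak over them. CDS and start codon regions are most often in 1 list (27.7% and 26.4%), stop codon and distal 3' UTR regions most often in 6 (48.0% and 55.9%).

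Recurrent CDS regions lay in long exons and highly expressed genes. The median exon around a region in all 6 lists had 712 nt, against 298 nt for regions in 1 list and 635 nt over the coding bases of the same 3374 genes. The nearest junction was 162 nt away for regions in all 6 lists, 62 nt for regions in 1 list and 93 nt for coding bases. A CDS region in all 6 lists was present in 0.373% of genes in the lowest of 5 equal groups by mRNA level per kb, 7.93% in the second, 19.0% in the third, 28.9% in the fourth and 33.3% in the highest. Detection thus moved with mRNA level, and its part in the results on peak presence below was not tested. Among the 5412 genes with a region in all 6 lists at the stop codon, 1530 (28.3%) also had one in the CDS. They were 45.3% of the genes with such a CDS region. Of all 27407 genes, 12.3% had a CDS region in all 6 lists, and of genes of at least 20 CPM in cold and control, 33.5%.

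Most of the 3374 genes had 1 CDS region in all 6 lists (2341 genes) or 2 (688 genes), and a few had many. AT5G40450, annotated as an A-kinase anchor-like protein, had 16, along a CDS of 8670 nt. CIP1, a protein that interacts with the photomorphogenesis repressor COP1, had 11 along 4761 nt, and all of its 11 CDS regions were in all 6 lists. AT4G26630, a DEK-domain chromatin protein, had 9 along only 2292 nt. LINC1 and LINC3, coiled-coil proteins of the nuclear periphery, had 8 each, as had NUA, a nuclear pore anchor protein, and AT1G04300, a TRAF-like protein. Counting regions in any list, NUA had 30.

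Cold and control were compared region by region as the presence of a peak in 3 of 3 lists of one group and 0 of 3 of the other. In the CDS, 85 regions in 77 genes were cold-only (0.284% of CDS regions, against 0.319% of the regions of all 4 classes), and 672 regions in 608 genes were control-only (2.24%, against 1.93% of all regions). Both shares were near those of all regions, but 29935 of those 52711 regions are CDS regions themselves. Control-only regions outnumbered cold-only ones in the other classes too, to differing degrees. Control-only shares were 1.69% at the stop codon, 2.60% at the start codon and 0.905% in the distal 3' UTR. The cold-only shares there were 0.338%, 0.593% and 0.327%. The short cold list 3 weighs on the cold-only count, which was 85 with all lists and 659 without that list. The control-only count was 672 with all lists and 759 without cold list 3, the lowest value with 1 list left out. With lists 1 and 2 of each group alone the counts were 1131 and 1437, and with the 15000 peaks of lowest p from each list they were 201 and 270. In genes of that level in both groups (20 CPM), 27 cold-only and 315 control-only regions were left. The control-only count exceeded the cold-only count in each of these counts.

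The 6 cold-only regions of highest mean −log10 q in genes of at least 20 CPM had the following sequences, printed as above to show the sites that the comparison names.
AT5G11240 (chr5:3586166-3586262, plus strand): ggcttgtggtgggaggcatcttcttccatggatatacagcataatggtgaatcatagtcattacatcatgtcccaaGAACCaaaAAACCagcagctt
AT2G11890 (chr2:4803467-4803567, plus strand): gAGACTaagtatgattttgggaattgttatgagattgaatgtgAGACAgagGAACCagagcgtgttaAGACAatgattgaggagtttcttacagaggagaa
AT1G79950 (chr1:30079065-30079165, plus strand): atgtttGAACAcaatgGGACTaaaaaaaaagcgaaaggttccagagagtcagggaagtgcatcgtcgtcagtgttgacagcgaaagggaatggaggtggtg
AT1G28350 (chr1:9946985-9947061, plus strand): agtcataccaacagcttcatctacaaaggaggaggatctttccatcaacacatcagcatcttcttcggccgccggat
ETL1 (chr2:523915-524015, plus strand): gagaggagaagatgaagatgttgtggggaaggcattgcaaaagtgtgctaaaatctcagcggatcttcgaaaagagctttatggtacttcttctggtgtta
SE (chr2:11575754-11575854, plus strand): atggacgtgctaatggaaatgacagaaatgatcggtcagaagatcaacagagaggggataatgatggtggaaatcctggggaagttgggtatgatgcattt
AT5G11240, a WD-40 repeat protein, had the strongest of them, with folds of 3.28, 3.22 and 5.10 in cold lists 1 to 3 and no peak in the control lists. Its mRNA was also higher in cold, at 90.23, 74.2 and 50.98 CPM against 31.2, 28.3 and 29.4 CPM, a rise of 1.21 ± 0.21 on the log2 scale (SE, adjusted p = 0.00503 by edgeR). AT1G28350, a nucleotidylyl transferase family protein, likewise rose, by 0.95 ± 0.18 (adjusted p = 0.00755 by edgeR). SE (SERRATE), which acts in microRNA processing and splicing, had folds of 2.01, 2.74 and 1.90 in the cold lists, and its mRNA rose by 0.45 ± 0.13 (adjusted p = 0.0373 by edgeR). The mRNA of AT2G11890, AT1G79950 and ETL1 did not pass the test, and ETL1, an SNF2-type chromatin remodeller by annotation, was at 45.1, 39.6 and 31.3 CPM in cold and at 38.1, 34.0 and 38.7 CPM in control. Of these 6 regions, only those of AT5G11240 and AT2G11890 had a q of at most 0.05 in more than 1 cold list.

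The 6 control-only regions chosen in the same way are printed next. All 6 hold an RRACH word, as do 3 of the 6 cold-only ones, beside 78.6% of windows around all CDS summits and 74.5% of all CDS windows. Some of the printed stretches are shorter than those windows, and the difference was not tested.
BLH1 (chr2:15090867-15090967, minus strand): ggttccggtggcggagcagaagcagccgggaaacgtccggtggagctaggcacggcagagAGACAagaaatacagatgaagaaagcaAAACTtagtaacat
AT1G73110 (chr1:27494891-27494949, minus strand): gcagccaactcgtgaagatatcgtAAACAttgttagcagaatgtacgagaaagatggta
LNG2 (chr3:397759-397859, minus strand): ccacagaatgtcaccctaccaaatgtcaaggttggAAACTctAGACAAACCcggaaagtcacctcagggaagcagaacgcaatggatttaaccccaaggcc
RPN10 (chr4:18057694-18057763, minus strand): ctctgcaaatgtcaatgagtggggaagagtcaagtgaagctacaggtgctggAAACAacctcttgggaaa
KAC2 (chr5:26161984-26162084, minus strand): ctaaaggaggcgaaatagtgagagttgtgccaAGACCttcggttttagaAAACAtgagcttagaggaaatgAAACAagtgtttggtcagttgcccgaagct
AT4G13360 (chr4:7776906-7776976, plus strand): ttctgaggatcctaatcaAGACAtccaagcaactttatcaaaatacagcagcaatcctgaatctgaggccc
BLH1, a homeodomain transcription factor, had folds of 2.17, 3.00 and 3.11 in control lists 1 to 3, each with a q of at most 0.05, and no peak in the cold lists. Its mRNA fell by 0.75 ± 0.19 on the log2 scale (SE, adjusted p = 0.0206 by edgeR), from 111, 134 and 174 CPM in control to 78.4, 87.8 and 99.3 CPM in cold. KAC2, a kinesin-like protein of chloroplast movement, fell by 0.77 ± 0.15 (adjusted p = 0.00773 by edgeR), and LNG2, a regulator of cell elongation, by 0.75 ± 0.23 (adjusted p = 0.0459 by edgeR). The mRNA of another pair of these genes moved the other way. RPN10, a ubiquitin receptor of the proteasome, was at 138, 137 and 137 CPM in cold and 81.3, 77.0 and 77.2 CPM in control, a rise of 0.72 ± 0.12 (adjusted p = 0.00448 by edgeR), while its CDS peak was called in control lists alone, with folds of 3.85, 1.97 and 2.13. AT1G73110, a P-loop hydrolase family protein, rose by 1.16 ± 0.15 (adjusted p = 0.00132 by edgeR), and its region had folds of 6.42, 2.09 and 2.53 in the control lists. AT4G13360 mRNA differed by -0.12 ± 0.18 (adjusted p = 0.673 by edgeR). The region of AT1G73110 had a q of at most 0.05 in only 1 control list. Those of RPN10, KAC2 and AT4G13360 had it in 2 and that of LNG2 in 3.

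Presence of a peak and mRNA level moved together over the genes as a whole. Of all 19261 genes tested in mRNA, 13.4% rose and 12.3% fell in cold (edgeR, adjusted p under 0.05). Of the 77 genes with a cold-only CDS region, 49 rose and 2 fell, with a median log2 change of 1.22. Of the 605 tested genes with a control-only CDS region, 40 rose and 215 fell, with a median of -0.47. The mRNA libraries are the input RNA of the same experiment, so these are not independent measures of the peak lists. In genes with at least 20 CPM in both groups, 10 of 27 with a cold-only region rose (37.0%) and 1 fell (3.70%). Of 292 such genes with a control-only region, 33 rose (11.3%) and 59 fell (20.2%). Among all genes of that level 17.1% rose and 9.22% fell. The median log2 changes were smaller there, at 0.34 for cold-only and -0.12 for control-only genes, beside 0.09 for all genes of that level. At the stop codon the same pattern was seen: 32 of 40 genes with a cold-only region rose and none fell, and 4 of 200 genes with a control-only region rose and 89 fell. The counts do not separate a change in methylation from a change in the amount of mRNA, and in whole seedlings fewer cells of a type and less RNA per cell cannot be told apart.

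**Figure D5:**
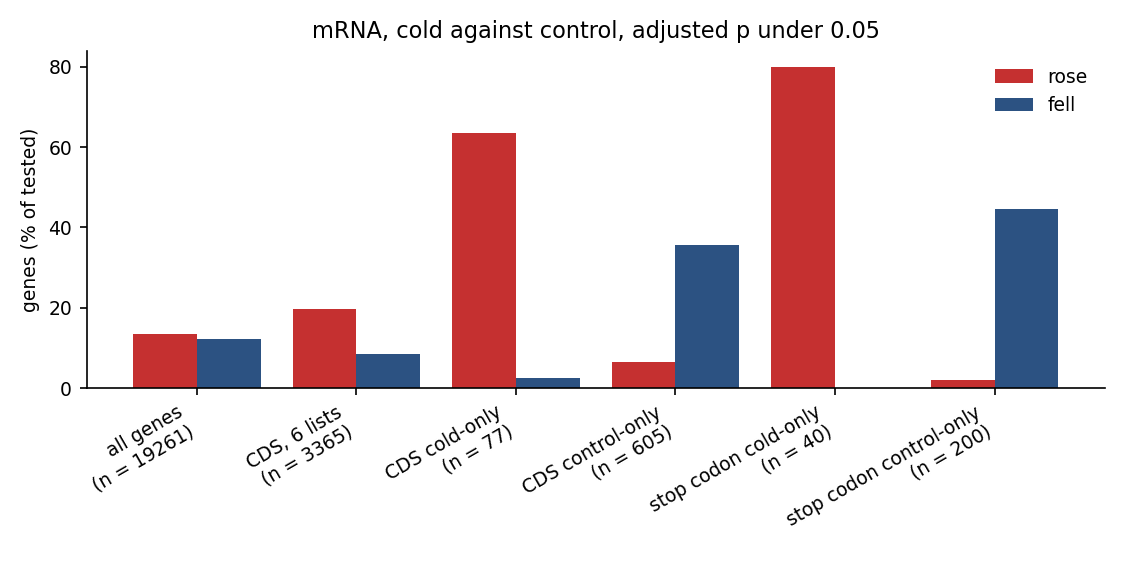
Percent of tested genes whose mRNA rose or fell in cold at an adjusted p under 0.05 (edgeR), for all genes and for genes with a CDS region in 6 lists or a cold-only or control-only region in the CDS or at the stop codon. Cold-only genes are mostly rising (63.6% for CDS) and control-only genes more often falling (35.5% for CDS).

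Genes with a CDS region in all 6 lists shifted upwards in cold by the main scaling, much as all genes of at least 20 CPM did. Of 3365 tested, 662 (19.7%) rose and 286 (8.499%) fell, with a median log2 change of 0.12, beside a median of -0.01 over all genes. In all genes with at least 20 CPM in both groups, 17.1% rose and 9.22% fell, with a median of 0.09. Genes with a region in all 6 lists at the stop codon had 18.2%, 8.79% and a median of 0.11. Those with one in the distal 3' UTR had 16.1%, 8.32% and 0.09. When libraries were scaled by their totals alone, 321 of the 3365 rose (9.54%) and 373 fell (11.1%), and the median of all expressed genes moved to -0.17, so the balance of rises and falls flips with the scaling. Over all genes the shares by that scaling were 7.07% and 14.9%, and over genes of at least 20 CPM in both groups 6.93% and 11.6%. In polysomal RNA 217 of 3364 rose and 106 fell, against 3.87% rising and 3.95% falling over all genes. For the interaction, which is the change in polysomal RNA minus that in mRNA, 3 rose and 11 fell, against 0.065% and 0.22% over all genes. Leaving out control polysome library 1 brought the polysome counts to 31 and 25, leaving out control polysome library 2 to 49 and 48, and leaving out control mRNA library 2 the interaction counts to 0 and 0.

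The largest mRNA rises among genes with a CDS region in all 6 lists included well-known cold genes. LTI30, a dehydrin, was at 1443, 1831 and 1033 CPM in cold and 20.6, 21.4 and 73.6 CPM in control (log2 change 5.13 ± 0.65 SE, adjusted p = 0.00352 by edgeR). LTI78, also called RD29A and a classical cold and drought marker, was at 612, 583 and 417 CPM against 41.9, 56.0 and 48.9 CPM, a rise of 3.37 ± 0.21. It carried 5 CDS regions in all 6 lists, none of which passed a q of at most 0.05 in more than 3 lists. The CDS region of LTI30 passed it in 0 lists. OEP16-1, a channel of the outer plastid envelope, rose by 3.68 ± 0.51, from 13.0, 15.7 and 35.9 to 281, 411 and 188 CPM. AT1G75190 rose by 3.51 ± 0.27 and AT4G32340 by 3.31 ± 0.43. AT3G22142 rose by 4.51 ± 0.95 (adjusted p = 0.0234 by edgeR), but cold library 3 was at 1359 CPM beside 219 and 205 CPM in the others, and the call was lost without any 1 of the control libraries.

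The largest falls were smaller. AT3G26450 was at 25.6, 40.7 and 35.5 CPM in cold and 138, 136 and 125 CPM in control, a change of -2.06 ± 0.19 (adjusted p = 0.000388 by edgeR). DR4, annotated as a drought-repressed protein, was at 39.98, 46.5 and 22.7 CPM against 181, 154 and 146 CPM, a change of -2.19 ± 0.26. AT4G27280 changed by -2.25 ± 0.31 and AT1G62510 by -2.33 ± 0.49. NUDT21, a nudix hydrolase, and PPCK1, the kinase of phosphoenolpyruvate carboxylase, changed by -2.39 ± 0.66 and -2.14 ± 0.51, and both calls were lost under the replicate block and, among other settings, when any of the cold libraries was left out. The call of AT1G62510 was lost without cold library 1 or 3.

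In polysomal RNA, LTI30 rose by 5.21 ± 0.64, with 1606 and 4036 CPM in the cold libraries and 98.9 and 52.0 CPM in the control libraries. LTI78 rose by 4.69 ± 0.65, and SUS1, a sucrose synthase, by 3.88 ± 0.57, the latter not without control library 1. J8, a chloroplast DnaJ protein, fell by 3.15 ± 0.31, from 891 and 939 CPM in control to 88.1 and 120 CPM in cold. AT1G62510 and NCED4, a carotenoid cleavage enzyme, fell by 4.08 ± 0.41 and by 2.95 ± 0.41. For all of these genes both cold libraries lay on the same side of both control libraries. For the interaction, CCL had the largest fall, at -3.92 ± 0.49: its mRNA was at 99.9, 119 and 237 CPM in cold against 56.6, 60.1 and 66.2 CPM in control, and its polysomal RNA at 315 and 413 CPM against 2544 and 1911 CPM. 4CL3, an enzyme of phenylpropanoid synthesis, had the largest rise, at 2.59 ± 0.38, and AMT1;2, an ammonium transporter, followed at 2.29 ± 0.33. The interaction calls of CCL, 4CL3, AMT1;2, AT5G20700, AT1G75190 and AT3G47800 were each lost in 2 to 10 of the alternatives.

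Genes of the m6A pathway carried CDS peaks themselves. Of 23 writers, erasers and readers, 9 had a CDS region in all 6 lists (39.1%), beside 12.3% of all 27407 genes. The lists of genes described from here on were not held to an mRNA level: 13 of these 23 genes reached 20 CPM in cold and control, and 8 of the 13 had such a region, beside 33.5% of the 7184 protein-coding genes of that level. They were the writers MTA, MTB and VIR, the eraser ALKBH10B, and the readers ECT2, ECT3, ECT4, ECT8 and CPSF30. The VIR region had folds of 2.46, 3.30 and 2.68 in cold lists 1 to 3 and 2.79, 2.88 and 4.64 in control lists 1 to 3. The ECT4 region had 2.86, 3.56 and 1.78 against 3.07, 2.79 and 3.40. ECT2, ECT3, ECT8 and CPSF30 had 3 such regions each. Regions in all 6 lists were not held to a q of at most 0.05, here or in the lists below. The VIR and ECT4 regions passed it in 5 of 6 lists each. No region of the 9 genes passed it in all 6. Of the 9 genes, 4 rose in cold mRNA and none fell, beside the 19.7% and 8.499% of all genes with such a region: ECT4 by 1.21 ± 0.13 (adjusted p = 0.00077 by edgeR), MTB by 0.82 ± 0.15, ECT3 by 0.66 ± 0.21 and ECT2 by 0.57 ± 0.14. ALKBH9B, another eraser, was the 1 gene of the 23 with a control-only region, beside 608 of all 27407 genes. It was expressed at 5.48 ± 1.15 CPM in cold and 8.47 ± 1.90 CPM in control (SD, n = 3).

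Of 18 clock genes, 7 had a CDS region in all 6 lists (38.9%), and so had 6 of the 9 that reached 20 CPM, beside the 33.5% of genes of that level. They were CCA1 with 5, TIC with 4, ELF3, LHY and LNK1 with 2 each, and PRR7 and PRR9 with 1 each. CCA1, a morning-phased MYB factor of the clock, had folds of 2.14, 1.45 and 2.46 in cold and 2.43, 2.30 and 2.37 in control at its named region. ELF3, of the evening complex, rose in mRNA by 2.405 ± 0.16 (adjusted p = 8.21e-05 by edgeR), and its region had folds of 2.07, 2.68 and 2.96 against 3.79, 4.12 and 2.65. Cold-only CDS regions were found in PRR5 (2 regions), PRR3 and LUX, and a control-only region in LNK2, all named here after their values were seen. These were 3 and 1 of the 18 clock genes, beside 77 and 608 of all 27407 genes, and the difference was not tested. PRR5 mRNA was at 166 ± 4.24 CPM in cold and 1.14 ± 0.76 CPM in control, PRR3 at 10.3 ± 5.44 against 0.395 ± 0.308 CPM, and LUX at 21.7 ± 5.91 against 8.55 ± 4.44 CPM (SD, n = 3). PRR5 and PRR3 mRNA rose, while LUX did not pass the test (adjusted p = 0.0616 by edgeR), nor did LNK2, at 192 ± 58.0 CPM in cold and 282 ± 26.0 CPM in control (adjusted p = 0.0631 by edgeR).

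Of 21 cold regulators, 6 had a CDS region in all 6 lists (28.6%), beside 12.3% of all genes. Of the 11 that reached 20 CPM, 5 had one, beside 33.5% of genes of that level. The 6 were ICE2, HSFC1, CAMTA1, CAMTA3, HOS1 and RAP2.1. The calmodulin-binding factor CAMTA3 had folds of 2.91, 2.11 and 2.87 in cold and 4.47, 2.44 and 3.00 in control, and CAMTA1 had 4.26, 1.64 and 4.89 against 4.00, 4.43 and 2.79. ICE2, an activator of the cold response, had 2.70, 3.31 and 3.85 against 2.07, 2.42 and 3.64. Among these 6, RAP2.1 mRNA rose and CAMTA1 mRNA fell, beside 19.7% rising and 8.499% falling among all genes with such a region. Of 24 cold-induced effectors, 5 had such a region (20.8%), all among the 18 that reached 20 CPM (27.8% of these, beside the same 33.5%). They were RD29A, ERD10, LTI30, CSP2 and BAM3, of which all but the cold shock protein CSP2 rose. The list was made of genes known to be induced by cold, so that count is no independent result. The LTI30 and BAM3 regions passed a q of at most 0.05 in 0 of the 6 lists. GOLS3, a galactinol synthase, had 1 cold-only CDS region and mRNA of 151 ± 60.4 CPM in cold and 3.71 ± 2.78 CPM in control (SD, n = 3). COR15A and COR47 each had 1 control-only region although their mRNA rose by 6.60 ± 0.50 and 3.79 ± 0.34 in cold. So 1 of the 24 effectors had a cold-only and 2 a control-only region. Of the 21 cold regulators, 0 had a cold-only and 1 (CAMTA1) a control-only region. Over all 27407 genes the counts were 77 and 608.

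Among housekeeping genes the counts of CDS regions in all 6 lists were as follows. Of 30 genes of the thylakoid light reactions 5 had one (16.7%), of 16 Calvin cycle genes 3 (18.8%), of 16 cytoskeleton genes 1 (6.25%) and of 12 ribosomal protein genes 3 (25%), beside 33.5% of the genes of at least 20 CPM, a level that all of these genes but 1 reached. TUB5, the tubulin gene that makes up the cytoskeleton count, had folds of 1.55, 2.16 and 1.56 in cold and 2.57, 1.72 and 1.93 in control, and its mRNA rose by 2.403 ± 0.16. The regions named for photosystem genes (PSBS, PSAD2 and PSAF) had folds between 1.26 and 1.87. They passed a q of at most 0.05 in 1, 0 and 0 of the 6 lists. SBPASE, of the Calvin cycle, had 1.45, 2.02 and 2.98 against 1.62, 2.63 and 1.95. Of 15 translation factors and poly(A)-binding proteins 3 had such a region (EIF3A, PAB2 and EIF4E), with EIF3A carrying 5, and of 11 enzymes of cell wall, membrane and nitrogen use 4 had one (CESA3, NIA1, NIA2 and GLN2). Of 10 chaperones 4 had one (HSP90.3, HSP90.4, BIP1 and BIP2), whose reads can be shared between near-identical copies. Of the members of these last 3 lists that reached 20 CPM, 20%, 40% and 50% had such a region, beside the same 33.5%. A control-only region was present in 3 of the 10 chaperones, beside 608 of all 27407 genes. No difference between lists or from all genes was tested. The lists also differed in median CDS length, beside 1297.5 nt for the genes of at least 20 CPM. It was 1828.5 nt for clock genes, 2055 nt for chaperones and 2754 nt for the cell wall, membrane and nitrogen enzymes. For cold-induced effectors it was 591 nt, for ribosomal proteins 706.5 nt and for thylakoid genes 798 nt. The part of CDS length in these shares was not tested.

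The tissue matched its label by leaf markers, whose 4 genes summed to 21827 to 31506 CPM in cold and 19477 to 23426 CPM in control, while 7 floral organ genes summed to 2.64 to 4.40 CPM. The 8 root markers summed to 190 to 229 CPM in cold and 37.4 to 150 CPM in control, but most of the sum came from IRT1 and PRP3, which did not pass the test (adjusted p = 0.391 and 0.171 by edgeR). TIP2;3, the 1 root marker that passed, fell by 2.26 ± 0.65 on the log2 scale (adjusted p = 0.0401 by edgeR). The part of these markers in the results was not tested.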

How the data were processed

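The members and gene lists were chosen with earlier results of these data known. Peaks were called by the authors with MACS2, per the submitters' processing notes, separately for each library and strand. The deposited lists give a score, a fold enrichment, a −log10 p and a −log10 q per peak. The score was not used. For mRNA and polysomal RNA the deposited files give counts of reads for each gene, made by the authors with STAR and HTSeq on TAIR10 per the submitters' processing notes. Versions and the strand setting of counting are not given in the sources used here. Without strand, the reads of a gene and of its antisense or overlapping partner cannot be separated. Reads without a unique place or outside genes were counted apart and left out; gene counts were 6.60% to 31.2% of the tallied reads in mRNA and 92.8% to 93.8% in polysome libraries, or 3282574 to 10965304 and 12984431 to 22200225 per library.

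Summits were placed on first isoforms of the RefSeq annotation of TAIR10.1, whose chromosomes 1 to 5 contain every peak used. Distances to codons were counted along the spliced CDS. Of 215 list entries, 214 had a gene model. Cold was set against control by the quasi-likelihood test of edgeR 4.0.16 (R 4.3.3) after filterByExpr and TMM scaling. P-values were adjusted over every tested gene by Benjamini-Hochberg, with 0.05 as the threshold. DESeq2 1.42.0 served as an alternative, and the fit was tested on simulated data. CPM are counts scaled by TMM library size. Exact permutation tests over lists used scipy 1.17.1. Intervals on counts are not given, and depth limits the detection of peaks in weakly expressed genes.

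Named regions were the 12 of best mean rank called at a q of at most 0.05 in 6 lists, the 6 strongest cold-only and control-only ones, the genes with most regions, and up to 3 genes per list. Named expression changes were the 6 largest each way in mRNA and 3 each way in polysomal RNA and the interaction, among genes that averaged at least 4 on the log2 CPM scale. In mRNA, deviations of same-numbered samples correlated at -0.05, -0.02 and 0.22, so the numbers did not pair the samples.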

Additional observations from a re-analysis of the deposited data

How the results depend on the processing

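The cold to control difference in CDS share kept its direction in all 10 alternatives, from -8.69 to -1.99 points with 1 list left out; the replicate block, which pairs lists by number, gave -5.91 (exact sign-flip permutation, p = 0.25, the smallest it allows). None of these designs could reach 0.05, so their p-values say nothing of stability. The CDS to stop codon fold difference was -0.13 to -0.15 (log2) with 1 list left out, where the exact sign-flip permutation test over 5 lists cannot go below p = 0.0625. With a q of at most 0.05 it was -0.05. The RRACH difference reversed with a q of at most 0.05 (-1.51 points), with 100 nt on either side (-0.35), with DRACH, which adds words starting with T (-1.68), and with the TGTA words (-26.4). The cause was not tested.

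Cold-only and control-only regions numbered 36 and 154 at a q of at most 0.05, 27 and 315 in genes of at least 20 CPM, 1131 and 1437 with lists 1 and 2 alone, and 201 and 270 with 15000 peaks per list, the last pair of settings chosen after seeing the data. With member peaks alone there were 426 control-only regions. With 1 list left out, which compares unequal numbers of lists, they ranged from 118 to 659 and from 759 to 1505. The highest cold-only count came without cold list 3.

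For genes with a CDS region in 6 lists, mRNA rises numbered 321 with library totals and 378 to 629 with 1 library left out, and falls 123 to 266. Polysome rises and falls were 478 and 197 with DESeq2 and 551 and 295 with the replicate block; rises were 326 without a filter. With 1 library left out they were 31 to 436 and 25 to 161. Interaction rises and falls were 48 and 71 with DESeq2 and 0 to 8 and 0 to 18 with 1 library left out; falls were 5 with library totals and 6 with median-of-ratios factors, and rises 6 with the replicate block. Groups left with 1 sample were assumed to vary like the others. For polysomal RNA and the interaction, the shares over all genes under these settings are not given here. Those counts therefore show only how the numbers move with the setting. In the 144 genes with a region at a q of at most 0.05 in 6 lists, 29 rose (20.1%) and 7 fell (4.86%) in mRNA. Over all genes 13.4% rose and 12.3% fell, and over genes of at least 20 CPM in both groups 17.1% and 9.22%. In polysomal RNA 11 of the 144 genes rose (7.69% of those tested) and 5 fell (3.50%), beside 3.87% and 3.95% of all genes. For the interaction 0 rose and 0 fell, beside 0.065% and 0.22% of all genes. For same-numbered polysome libraries the correlation of deviations was 0.47. With 2 libraries per group both numbers must give the same value, so it cannot show a pairing.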
